A study of Mus musculus with 16 samples.

Results

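The 10 small RNAs described here are the passenger (3p) strands of the mouse let-7 hairpins: let-7a-2-3p, let-7b-3p, let-7c-1-3p, let-7c-2-3p, let-7d-3p, let-7e-3p, let-7f-1-3p, let-7f-2-3p, let-7g-3p and let-7i-3p. They were taken by name from the deposited tables, after removal of the mismatch remark behind a name, and are 10 of the 2273 miRNA names left after synonymous names were merged. Together they held 161862 reads, 0.42% of all reads. The libraries came from C2C12, mouse myoblasts kept as a line, which form myotubes in low serum, and the growth protocol calls the cells PAX7 NEG. Control cells (labelled wild-type, lines 1 and 2) and triple-knockout cells (tKO, lines C1 and C2, lacking miR-1a-1, miR-1a-2 and miR-206) were each sampled in growth medium with 20% fetal bovine serum (GM) and after 3 days in 2% horse serum (DM3). Each of the 4 groups therefore holds 4 libraries, 2 lines with replicates 1 and 2 of each. The labels do not say how the lines were derived, and p-values measure the spread over 4 libraries from 2 lines and not over 4 independent lines.

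A let-7 hairpin is cut by Drosha and then by Dicer into a duplex of a 5p and a 3p strand. The 5p strand is usually the one kept by Argonaute, where it represses targets such as Lin28, Hmga2 and Ras transcripts, and let-7 rises as many tissues differentiate. The 3p strand is usually discarded, although some 3p strands are retained. Most pre-let-7 hairpins end with a short 3′ overhang that terminal uridylyl transferases extend by a uridine before Dicer cuts, whereas pre-let-7a-2, pre-let-7c-1 and pre-let-7e have the ordinary longer overhang, and the added uridine then lies at the 3′ end of the 3p strand.

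The mature sequences are printed because they show which 3p strands share a seed and which ones cannot be told apart. They are from RefSeq on GRCm38.p6, where all 10 members had an entry, and run 5′ to 3′ with the seed (bases 2 to 8) in capitals.
let-7b-3p: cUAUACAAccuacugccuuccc
let-7c-2-3p: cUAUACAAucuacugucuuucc
let-7f-1-3p: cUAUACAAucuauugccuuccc
let-7f-2-3p: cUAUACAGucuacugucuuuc
let-7d-3p: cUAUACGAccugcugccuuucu
let-7e-3p: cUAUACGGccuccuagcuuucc
let-7c-1-3p: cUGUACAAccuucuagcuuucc
let-7a-2-3p: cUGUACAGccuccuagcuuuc
let-7i-3p: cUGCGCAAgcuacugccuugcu
let-7g-3p: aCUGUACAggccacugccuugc

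let-7b-3p, let-7c-2-3p and let-7f-1-3p shared a seed, and each of the other 7 members had a seed of its own, unlike the 5p strands, whose 8 mature sequences had a single seed in common. let-7c-2-3p and let-7f-2-3p differed at 1 of 21 positions. The mature sequence of let-7a-1-3p, which is not a member, is identical to that of let-7c-2-3p over its 22 bases, so a read of that sequence listed as let-7c-2-3p may come from either hairpin. In the genome, the 3p strands of let-7c-2 (chr15:85706664-85706685) and let-7b (chr15:85707379-85707400) lie on the plus strand of chromosome 15, and those of let-7d (chr13:48536024-48536045) and let-7f-1 (chr13:48537833-48537854) on the minus strand of chromosome 13. let-7a-2-3p (chr9:41536777-41536797, plus), let-7g-3p (chr9:106178902-106178923, plus), let-7i-3p (chr10:122985642-122985663, minus), let-7c-1-3p (chr16:77599717-77599738, plus), let-7e-3p (chr17:17830411-17830432, plus) and let-7f-2-3p (chrX:151912403-151912423, plus) are encoded elsewhere. All 10 lie in the 3′ arm of an annotated miRNA hairpin gene.

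Library totals ran from 112792 to 6543570 reads. A count of 3 reads, taken as the lowest level the depth can show, was 0.458 CPM (counts scaled to 1000000 listed reads) in the deepest library and 26.6 CPM in the shallowest, the DM3 library of tKO line 1 replicate 1. That library also had the highest share of reads under 18 nt, 18.9%, against 1.88% in the lowest. miR-206-3p, one of the deleted miRNAs, was at 837 to 1466 CPM in control GM and 19950.5 to 57442 CPM in control DM3, against 0.808 to 15.5 CPM in tKO GM and 0.960 to 70.9 CPM in tKO DM3. No library went against its labels by this measure.

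The 10 strands spanned a wide range of levels, and let-7d-3p alone gave 56.2% of their reads. Median levels over the 16 libraries were 2237 CPM for let-7d-3p, 717 CPM for let-7c-2-3p, 644 CPM for let-7b-3p, 169 CPM for let-7e-3p, 84.9 CPM for let-7f-1-3p and 44.4 CPM for let-7i-3p. let-7c-1-3p had a median of 13.004 CPM, let-7f-2-3p of 8.44 CPM, let-7a-2-3p of 4.26 CPM and let-7g-3p of 3.71 CPM, which are levels of few reads: these 4 names held 615, 350, 223 and 113 reads over all libraries. In control GM the order was let-7d, b, c-2, e, f-1, i, c-1, f-2, a-2 and g, and only let-7b-3p with let-7c-2-3p, and let-7f-2-3p with let-7a-2-3p, overlapped as neighbours. In control DM3 the neighbours let-7c-2-3p and let-7b-3p, let-7f-1-3p and let-7i-3p, and all neighbours from let-7c-1-3p down overlapped. All 10 mature strands are 21 or 22 nt long, so the order needs no length scaling. It is an order of reads, and how evenly the strands were ligated and amplified was not measured.

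**Figure D1:**
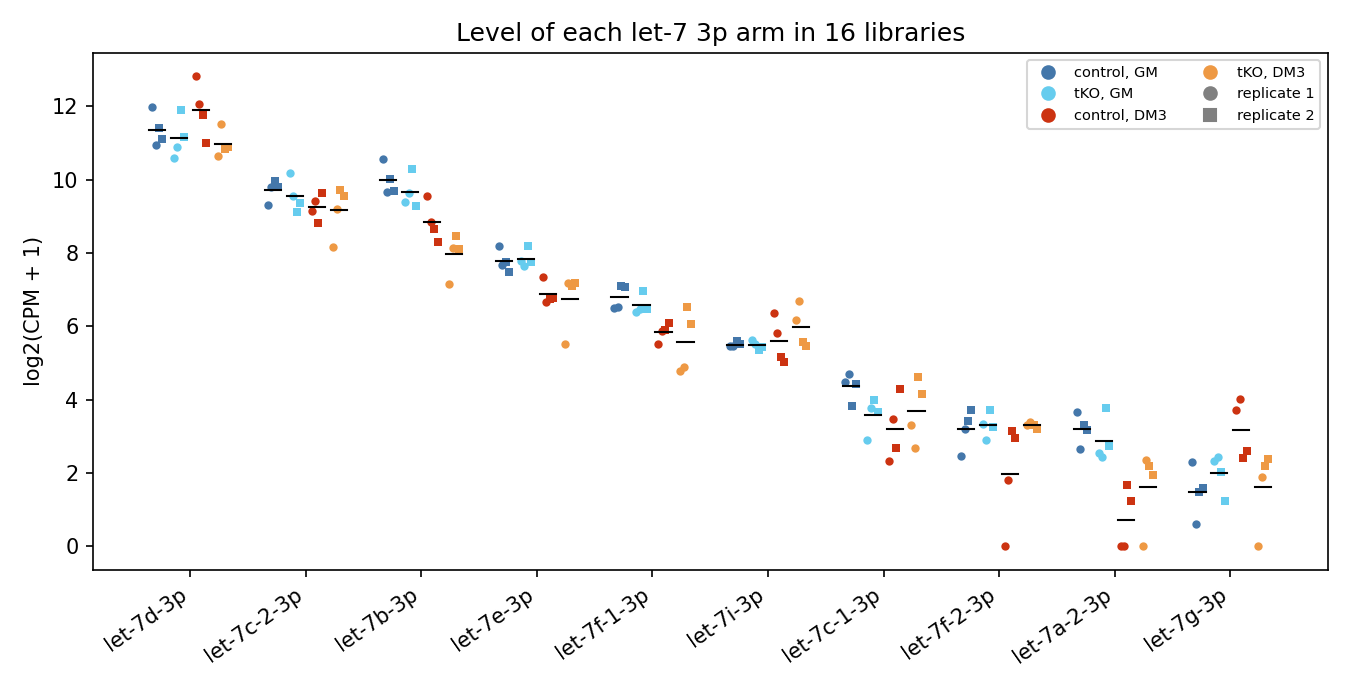
Level of each 3p strand as log2(CPM + 1), with 1 point per library coloured by group, round for replicate 1 and square for replicate 2, and a black bar at the mean of 4. let-7d-3p lay above all other members in each group, and the red and orange DM3 points of let-7b-3p and let-7e-3p lay below the blue GM points of the same genotype.

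The question asked of differentiation was whether the strands differ between DM3 and GM. 4 of the 9 tested members were called lower in DM3 in control cells, where 11.8% of the 807 names tested over the whole table were called lower and 27.6% were called in either direction. No member was called higher. The median log2 fold change was -1.18 over the 9 members and 0.02 over all names tested. In tKO cells 2 of 9 members were called lower, where 8.30% of all names were called lower and 19.7% in either direction, and the medians were -0.62 and 0.01. Calls are edgeR quasi-likelihood tests with a Benjamini-Hochberg adjusted p under 0.05. let-7g-3p had too few reads to pass the filter and was not tested for level. In CPM, GM and DM3 libraries did not overlap for 4 of the 9 tested members in control, where 31.7% of all 807 names did not overlap, and for 3 of the 9 in tKO, where 18.5% did not. Both counts include let-7a-2-3p, whose DM3 zeros are from shallow libraries and cannot alone show a lower level. The share of reads under 18 nt also differed between the media: control libraries had 1.88% to 2.95% in GM and 4.76% to 12.8% in DM3, without overlap. The tKO libraries had 2.00% to 6.49% in GM and 2.96% to 18.9% in DM3. Its part in the DM3 results was not tested.

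let-7b-3p, the 3p strand with the most reads among those called, fell in both genotypes. Its level in control GM was 1515, 1042, 806 and 826 CPM, given here and below as line 1 replicates 1 and 2, then line 2 replicates 1 and 2. In control DM3 it was 754, 403, 459.7 and 314 CPM. Every DM3 library was below every GM library. In tKO the same strand went from 663, 1257, 793 and 626 CPM in GM to 142, 354, 281 and 274 CPM in DM3, again with no overlap. On the log2 scale the change was -1.55 (SE 0.33) in control and -1.85 (SE 0.34) in tKO, called by edgeR at adjusted p = 0.00178 and 0.00108. The exact two-sided permutation test of mean log2(CPM + 1) gave p = 0.0286 in each genotype, the smallest that 70 assignments of 4 against 4 libraries can give.

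let-7e-3p also fell in both genotypes. It was at 289, 217, 201 and 176 CPM in control GM and at 161, 107, 100.5 and 108 CPM in control DM3. In tKO it was at 219, 291, 199 and 215 CPM in GM and at 44.3, 135, 144 and 144 CPM in DM3, where the low value is 5 reads in the shallowest library. The groups did not overlap in either genotype. Medium changed it by -1.29 log2 units (SE 0.37, edgeR adjusted p = 0.0130) in control and -1.14 (SE 0.37, edgeR adjusted p = 0.0356) in tKO, with an exact permutation p of 0.0286 in each. The tKO call rests on many single libraries: it was lost in 14 of the 16 fits that left out 1 library, with log2 fold changes from -1.37 to -0.87 and edgeR adjusted p-values up to 0.0936, among them the fit without the shallowest library (-0.87).

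let-7f-1-3p was called lower in control cells. Its level went from 89.8, 136, 91.2 and 134 CPM in control GM to 44.4, 58.3, 57.8 and 67.5 CPM in control DM3, with no overlap. This was a log2 change of -1.33 (SE 0.41, edgeR adjusted p = 0.0198; exact permutation p = 0.0286). The call was lost without control DM3 line 1 replicate 1 or 2, control DM3 line 2 replicate 1, or replicate 2 of either control GM line, with log2 fold changes from -1.60 to -1.20 over the 16 such fits. It was also lost with mismatched reads left out (-1.04, edgeR adjusted p = 0.0779) and by hairpin match (-0.93, edgeR adjusted p = 0.0936). In tKO it was at 82.4, 124, 87.7 and 87.4 CPM in GM and at 26.6, 90.2, 28.5 and 65.4 CPM in DM3. These groups overlapped, and the log2 fold change of -0.99 (SE 0.41) had an edgeR adjusted p of 0.0938. With the replicate number as a block (replicate block) it became -1.16 with an edgeR adjusted p of 0.0293. DESeq2 (-0.94, adjusted p = 0.04205) and edgeR within replicate 1 (-2.07, adjusted p = 0.0353) also called it. Both tKO replicate 1 libraries in DM3 were below both replicate 2 libraries.

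let-7a-2-3p had the largest fitted decrease in control among the 9 members tested, at very low read numbers. Control GM libraries held 6, 49, 10 and 52 reads, or 11.7, 8.89, 5.27 and 7.95 CPM. Control DM3 libraries held 0, 2, 0 and 4 reads, or 0, 2.16, 0 and 1.34 CPM, while 3 reads in the 2 empty libraries would be 12.1 and 7.54 CPM, so these zeros alone cannot show a lower level. edgeR fitted a log2 change of -2.90 (SE 0.59, adjusted p = 0.00113) with an exact permutation p of 0.0286. In tKO it went from 4.85, 12.8, 4.44 and 5.67 CPM to 0, 3.52, 4.07 and 2.86 CPM. These groups did not overlap, with an exact permutation p of 0.0286. The 0 is from the library where 3 reads are 26.6 CPM, so it cannot show a lower level. The tKO log2 fold change was -1.23 (SE 0.49), with an edgeR adjusted p of 0.0847.

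let-7d-3p, the most abundant of the 10, was not called in either genotype. It was at 4066, 2701, 1977 and 2203 CPM in control GM and at 7178, 3491, 4258 and 2048 CPM in control DM3, and at 1542, 3781, 1892 and 2271 CPM in tKO GM and 1605, 1833, 2927 and 1906 CPM in tKO DM3. The groups overlapped in both genotypes. The log2 fold change was 0.19 in control (95% interval -0.44 to 0.82) and -0.39 in tKO (-1.01 to 0.24). The share of let-7d-3p in the summed level of the 10 strands was 48.9% to 60.9% in control GM and 60.4% to 81.6% in control DM3, ranges that overlap slightly, and 41.2% to 62.1% and 54.9% to 73.3% in tKO.

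The other members were not called. let-7c-2-3p had log2 fold changes of -0.82 (SE 0.42) in control and -0.62 (SE 0.42) in tKO, and its DM3 libraries ranged over 284 to 843 CPM against 554 to 1161 CPM in GM. let-7f-2-3p was at -1.08 (SE 0.49, edgeR adjusted p = 0.111) in control and -0.25 in tKO. let-7i-3p was at -0.30 (SE 0.37) and 0.27 (SE 0.37). let-7g-3p, on 0 to 19 reads per library, was at 3.90, 1.81, 0.527 and 1.99 CPM in control GM and at 12.1, 4.32, 15.1 and 5.01 CPM in control DM3, without overlap.

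let-7c-1-3p was not called as listed, and several settings change that. As listed, its log2 change in control was -1.18 (SE 0.51, edgeR adjusted p = 0.0965), and in tKO it was 0.19 (SE 0.50, edgeR adjusted p = 0.844). Of its 615 reads, 269 were under 16 nt, most of them a single 14-nt sequence of 230 reads, and 159 of the 269 came from DM3 libraries. When only reads of at least 16 nt that match a RefSeq hairpin near the mature start were counted (a hairpin match), edgeR gave -2.01 (SE 0.61, adjusted p = 0.0174), and with mismatched reads left out it was -2.15 (edgeR adjusted p = 0.00692). Both calls rest on few reads. The control DM3 libraries of line 1 held 1 and 5 listed reads and none by hairpin match, where 3 reads would be 12.1 and 3.24 CPM. With the listed reads, leaving out control DM3 line 2 replicate 2 gave -2.14 (edgeR adjusted p = 0.0118), the other 15 such fits were not called and the 16 ranged up to -0.97. The replicate block with line gave -1.32 (edgeR adjusted p = 0.0476). Its line term is shared by control line 2 and tKO line C2, so it does not correct for lines within a genotype.

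The 5p strands of the same hairpins also had fold changes below 0. All 8 had a log2 fold change below 0 in control DM3 against GM, with a median of -0.96, and 4 were called: let-7e-5p (-1.76, SE 0.41), let-7a-5p (-0.95, SE 0.29), let-7b-5p (-0.79, SE 0.28) and let-7c-5p (-0.76, SE 0.26), with edgeR adjusted p-values of 0.00348, 0.0198, 0.0394 and 0.0372. In tKO the median was -0.73 and none of the 8 was called by edgeR, while 4 had an unadjusted p under 0.05 and DESeq2 called 3. DESeq2 called 210 of all 807 names in this comparison, in either direction. The share of all names with an unadjusted p under 0.05 was not counted. The calls of let-7a-5p, let-7b-5p and let-7c-5p in control were lost in 5, 12 and 13 of the 16 fits without 1 library. Their log2 fold changes over the 16 fits ran from -1.15 to -0.81, -0.96 to -0.76 and -0.92 to -0.71. The scaling changes calls of both strands. With total counts in place of TMM the median of all names moved from 0.02 to 0.39 in control and from 0.01 to 0.24 in tKO. The calls over all names went from 95 lower and 128 higher to 62 lower and 153 higher in control, and from 67 lower and 92 higher to 43 lower and 110 higher in tKO. By edgeR with total counts, let-7e-3p (-0.89, adjusted p = 0.0734) and let-7f-1-3p (-0.98, adjusted p = 0.0717) were then not called in control, nor was let-7e-3p in tKO (-0.94, adjusted p = 0.0764), while let-7a-2-3p and let-7b-3p stayed called in control. Of the 5p strands, let-7a-5p (-0.55, edgeR adjusted p = 0.0698), let-7b-5p (-0.38, 0.285) and let-7c-5p (-0.37, 0.192) were not called in control with total counts. Fewer cells of a type and less RNA per cell cannot be told apart in these bulk libraries.

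**Figure D2:**
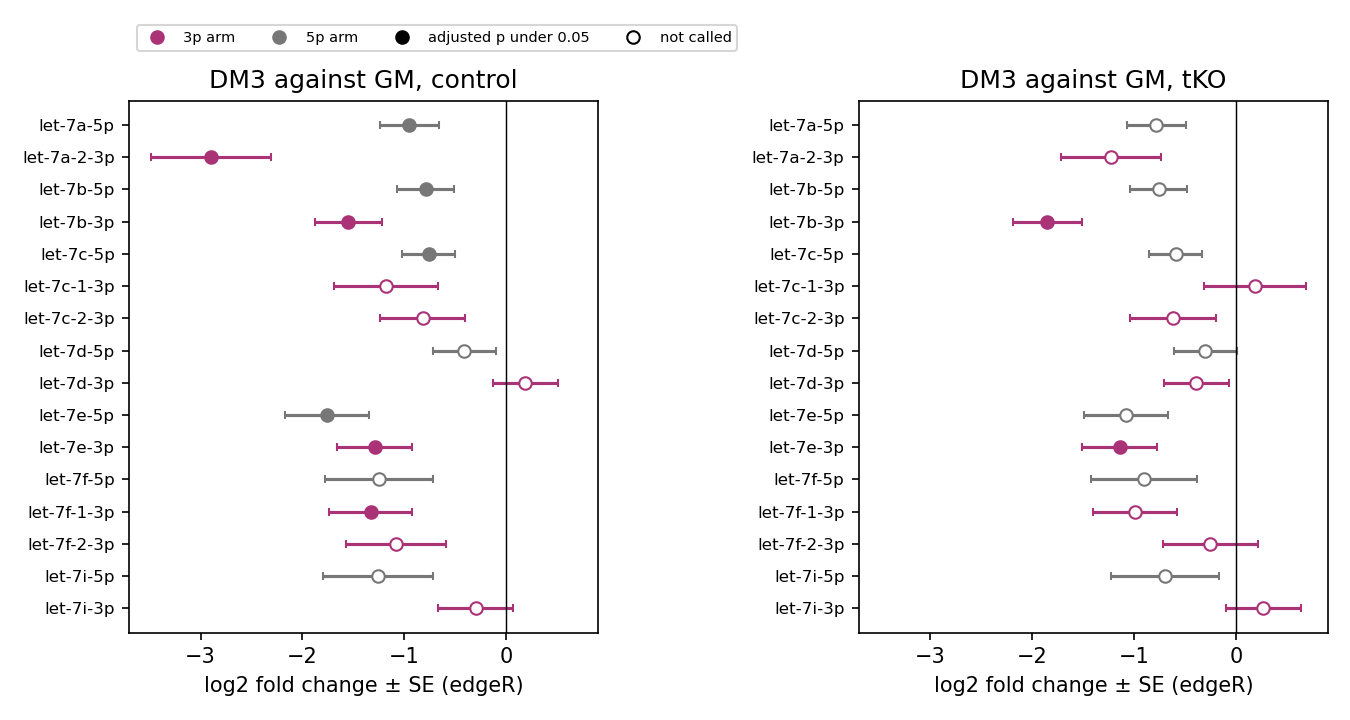
Log2 fold change of DM3 against GM with its SE from the edgeR fit (x axis), for the 3p strands (purple) and the 5p strands (grey) of let-7a, b, c, d, e, f and i, in control (left) and tKO (right); filled points have an adjusted p under 0.05. let-7b-3p and let-7e-3p were filled in both panels, and let-7d-3p lay nearest to 0 among the 3p strands in control.

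The ratio of 3p to 5p reads in a library removes the scaling between libraries and sets reads of the passenger strand against those of its guide. It is a ratio of reads and not of molecules, since how evenly different strands were ligated and amplified was not measured. It differed widely between hairpins. let-7d had 14.6 to 44.2 reads of the 3p strand per 100 reads of the 5p strand, with a median of 23.7. let-7e had 2.22 to 11.5, let-7b 1.66 to 7.01, let-7c-2 0.719 to 2.16, let-7f-1 0.334 to 1.19 and let-7i 0.0826 to 1.02. let-7a-2, let-7c-1, let-7f-2 and let-7g had medians of 0.0320, 0.0220, 0.0554 and 0.0416. The 5p counts of let-7a, let-7c and let-7f come from more than one hairpin with the same 5p sequence, so the ratios of their 3p strands are not those of a single hairpin. The listed 3p counts also hold reads that are not the strand: by hairpin match the let-7c-1 ratio in control DM3 was 0.00651 in place of 0.0173 per 100.

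The deposited naming also touches the let-7b ratio. 293948 reads listed under let-7c-5p with a mismatch, 12.6% of that name, match the let-7b hairpin exactly. By hairpin match let-7b-5p held 857275 reads in place of the 628594 listed, and the let-7b ratio in control GM was 3.31 ± 0.349 (SD, n = 4) per 100 in place of 4.81 ± 0.618.

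In the fit of arm ratios, 387 pairs of strands were tested. In control cells 2 of the 10 members were called, 1 lower and 1 higher in DM3, where 15.0% of all pairs were called, 6.72% lower and 8.27% higher. In tKO 1 of 10 was called, lower, where 9.04% of pairs were called and 4.65% lower. The median log2 ratio change over the members was 0.02 in control and -0.03 in tKO, against -0.01 and -0.02 over all pairs.

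The let-7b ratio was lower in DM3 in both genotypes. It was 5.03, 5.47, 4.0004 and 4.72 per 100 in control GM and 3.48, 2.83, 2.46 and 2.58 in control DM3, and 4.66, 7.01, 4.08 and 3.63 in tKO GM and 1.66, 3.14, 1.68 and 2.33 in tKO DM3. GM and DM3 libraries did not overlap in either genotype, with an exact permutation p of 0.0286 in each. How many of all pairs separate by medium in this way was not counted, so the separation has no reference. The change was -0.76 on the log2 scale in control (SE 0.31), which missed the call with an edgeR adjusted p of 0.0901, and -1.11 in tKO (SE 0.31), which was called at 0.0245. The tKO call was lost in 5 of the 16 fits without 1 library (-1.31 to -0.92), among them the fits without tKO DM3 line 1 replicate 1, without either tKO GM library of line 1 and without either tKO DM3 library of line 2. It was also lost under limma with 0.5 reads added (-1.13, adjusted p = 0.0634), with at least 10 reads per strand (-1.11, edgeR adjusted p = 0.0808) and within replicate 2 (-0.90, edgeR adjusted p = 0.191).

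The other 2 calls rest on few reads, and under limma with 5 reads added neither was made. The let-7g ratio rose in control from 0.0725, 0.0240, 0.00504 and 0.0232 to 0.403, 0.109, 0.389 and 0.0521 per 100, ranges that overlap, with a log2 change of 2.58 (SE 0.68, edgeR adjusted p = 0.0103; exact permutation p = 0.0571). Its control libraries held 1 to 15 reads of the 3p strand. In tKO the change was 0.08 (SE 0.60). Without control DM3 line 2 replicate 1 the control change was 2.07 with an edgeR adjusted p of 0.0523, within replicate 2 it was 1.45 (edgeR adjusted p = 0.161), and by limma with 5 reads added 2.63 (adjusted p = 0.104). The let-7a-2 ratio fell by 2.00 in control (SE 0.62, edgeR adjusted p = 0.0311). It was not called by hairpin match (-1.69, edgeR adjusted p = 0.0737) or within replicate 2 (-1.87, edgeR adjusted p = 0.07975). Nor was it called in 5 of the 16 fits without 1 library, with changes from -2.41 to -1.82 over the 16. The 5 left out replicate 1 of either control DM3 line, replicate 2 of either control GM line, or control DM3 line 2 replicate 2. Under limma with 5 reads added the let-7a-2 change was 0.22. The let-7c-1 ratio in control, not called as listed, was called lower with mismatched reads left out (-1.71, edgeR adjusted p = 0.0179) and by hairpin match (-1.63, edgeR adjusted p = 0.0368). By hairpin match it was 0 in both control DM3 libraries of line 1, which held 1 and 5 listed reads of let-7c-1-3p. The let-7f-2 ratio in tKO was called higher within replicate 1 (1.94, edgeR adjusted p = 0.0346), in a fit that called 40 of 154 pairs. Its DM3 libraries there, of lines 1 and 2, held 1 and 7 reads of let-7f-2-3p. By hairpin match the ratio in the first of them was 0.

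let-7d and let-7e had their highest ratios in control DM3 but were not called. The let-7d ratio was 28.7, 23.9, 14.6 and 24.04 per 100 in control GM and 44.2, 37.5, 31.3 and 21.7 in control DM3, a log2 change of 0.56 (SE 0.35). In tKO it was 14.9, 42.7, 16.6 and 23.6 in GM and 26.7, 19.7, 20.8 and 18.9 in DM3. The let-7e ratio was 6.43, 4.62, 3.05 and 3.40 in control GM and 11.5, 6.66, 6.32 and 3.37 in control DM3, a log2 change of 0.58 (SE 0.40). In tKO the let-7e ratio was 3.46, 6.89, 2.81 and 3.82 in GM and 2.22, 3.05, 5.49 and 3.34 in DM3. Its log2 change in tKO was -0.18 (SE 0.40). GM and DM3 libraries overlapped for both hairpins in each genotype.

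The let-7i ratio separated by replicate number in DM3. It was 0.175, 0.117, 0.0947 and 0.0954 per 100 in control GM and 0.0826, 0.144, 0.0996 and 0.108 in tKO GM. In DM3, the 4 replicate 1 libraries were at 1.02 and 0.312 in control and 0.565 and 0.520 in tKO, and the 4 replicate 2 libraries at 0.201 and 0.0841 in control and 0.0936 and 0.0937 in tKO. Over all libraries the log2 change was 1.13 (SE 0.61, edgeR adjusted p = 0.222) in control and 0.88 (SE 0.61) in tKO. Leaving out 1 library moved it between 0.55 (without control DM3 line 1 replicate 1) and 1.75 (without control DM3 line 2 replicate 2, called at an edgeR adjusted p of 0.0408) in control. In tKO it moved between 0.31 (without tKO DM3 line 2 replicate 1) and 1.36 (without tKO DM3 line 2 replicate 2), and it was 0.58 without tKO DM3 line 1 replicate 1 and 1.35 without tKO DM3 line 1 replicate 2, none of them called. Within replicate 1 it was 2.15 in control and 2.55 in tKO, both called (edgeR adjusted p = 0.0371 and 0.0169). Those fits called 15 of 154 pairs in control and 40 of 154 in tKO, in either direction. Within replicate 2 the let-7i change was 0.25 and -0.40, neither called. The replicate 1 libraries in DM3 held 112792 to 736900 reads each and 8 to 75 reads of let-7i-3p, and the part of depth in this difference was not tested.

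**Figure D3:**
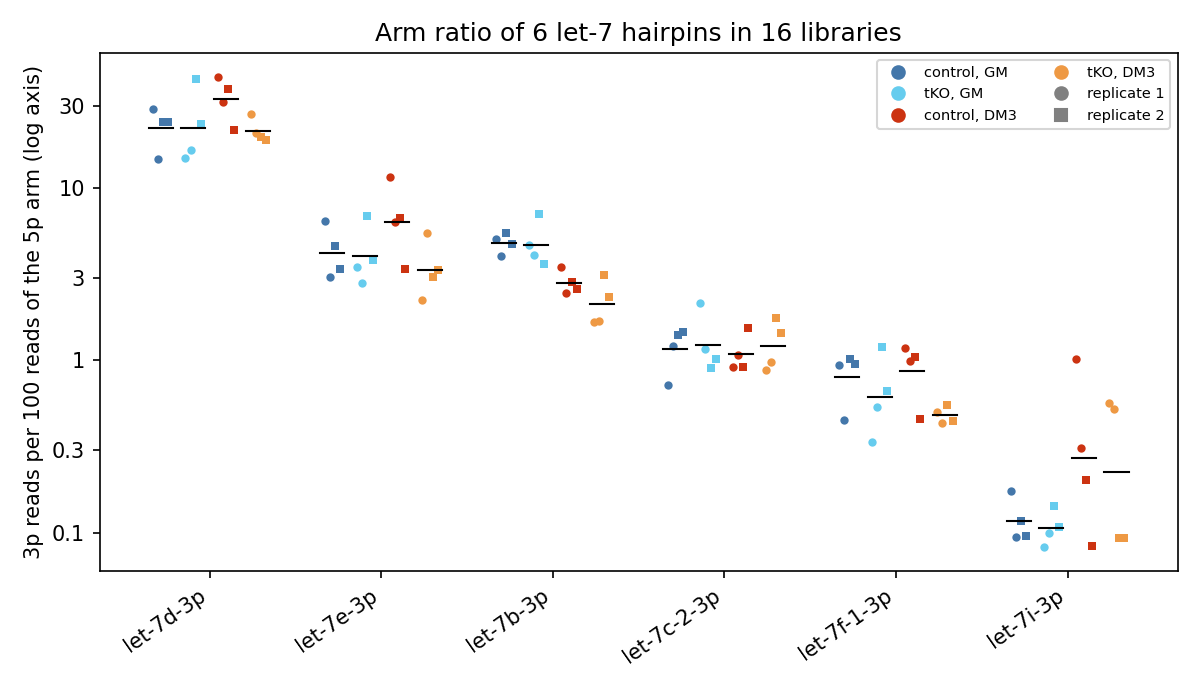
Reads of the 3p strand per 100 reads of the 5p strand on a log axis for 6 hairpins, 1 point per library, round for replicate 1 and square for replicate 2, with bars at the mean of the logs. let-7d lay near 14.6 to 44.2, the DM3 points of let-7b lay below its GM points, and the round DM3 points of let-7i lay above all others of that hairpin.

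The other question was whether the strands differ between tKO and control. No member was called in GM or in DM3, where edgeR called 1.12% and 0.867% of all 807 names. In GM all 9 tested members had a log2 fold change below 0, from -0.92 to -0.03 with a median of -0.34 against 0.11 over all names, none had an unadjusted p under 0.05 and DESeq2 called none. With total counts in place of TMM 7 of the 9 were below 0. In DM3, 2 of 9 had an unadjusted p under 0.05 and DESeq2 again called none. These were let-7d-3p, at -0.91 (95% interval -1.55 to -0.28, edgeR adjusted p = 0.279), and let-7b-3p, at -0.74 (-1.39 to -0.10, edgeR adjusted p = 0.395). Control and tKO libraries overlapped for both in DM3, with an exact permutation p of 0.0571 each.

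Among the 9 tested members, the genotypes did not overlap in DM3 for let-7f-2-3p alone, where 5.08% of all 807 names did not overlap, and the untested let-7g-3p did not overlap either. let-7f-2-3p was at 0, 7.92, 2.51 and 6.80 CPM in control and 8.87, 8.96, 9.50 and 8.22 CPM in tKO, from 0 to 37.3 reads per library. let-7g-3p was at 12.1, 4.32, 15.1 and 5.01 CPM in control and 0, 3.52, 2.71 and 4.18 CPM in tKO, from 0 to 19 reads. The shallow libraries cannot show these separations: the 0 of let-7f-2-3p in control is from a library where 3 reads are 12.1 CPM, its 8.87 CPM in tKO is 1 read, and the 0 of let-7g-3p in tKO is from the library where 3 reads are 26.6 CPM. In the fit across all names let-7f-2-3p had a log2 fold change of 0.69 (SE 0.52) and an edgeR adjusted p of 0.601.

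The arm ratios gave no genotype call either: 0 of 10 members in GM, where 0.258% of pairs were called, and 0 of 10 in DM3, where 1.03% were called. In edgeR, 0 and 1 member had an unadjusted p under 0.05, and limma called none. In DM3 the fitted log2 differences of tKO from control ran from -1.88 to 1.28, with a median of -0.36. The lowest was let-7g (95% interval -3.22 to -0.53), the member with the unadjusted p under 0.05, and the highest let-7a-2 (-0.07 to 2.64). let-7e was at -0.82, let-7f-1 at -0.80, let-7d at -0.62, let-7b at -0.37 and let-7i at -0.35, and let-7c-1 at 0.62, let-7f-2 at 0.20 and let-7c-2 at 0.18. The interaction, the difference between the differentiation effects of the 2 genotypes, was called for 0 of 9 levels and 0 of 10 ratios, as for 0% of all names and 0% of all pairs. By edgeR 1 level (let-7a-2-3p, 1.67, SE 0.77) and 1 ratio (let-7g, -2.50, SE 0.93) had an unadjusted p under 0.05, with adjusted p-values of 0.937 and 0.933, and neither DESeq2 nor limma called a member. A call in one genotype and not in the other is therefore not shown to be a difference between them.

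Most reads of the abundant members began at the annotated base. Placed reads, those whose first 16 bases or more match the hairpin near the mature start, were 91.5% to 95.3% of the reads of let-7b-3p, let-7c-2-3p, let-7d-3p, let-7e-3p, let-7f-1-3p and let-7i-3p. Of these, 99.3% of let-7b-3p, 99.6% of let-7i-3p, 98.4% of let-7c-2-3p and 96.6% of let-7f-1-3p began at the annotated 5′ end. For let-7d-3p this was 92.9%, with 7.003% beginning 1 base later, which moves the seed. let-7e-3p had 91.9% at the annotated base. let-7a-2-3p was more mixed on 205 placed reads, with 69.8% at the annotated base, 11.7% beginning 1 base earlier and 14.6% beginning 3 bases earlier.

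let-7g-3p was the exception. Only 24.4% of its 82 placed reads began at the annotated base and 74.4% began 1 base later. Its most frequent sequence, with the seed of that read in capitals, is shown beside the annotated strand printed above because the shift gives it the seed letters of let-7a-2-3p, whose most frequent read is the second line.
let-7g-3p, 23 reads: cTGTACAGgccactgccttgcc
let-7a-2-3p, 92 reads: cTGTACAGcctcctagctttcc

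At the 3′ end, many 3p reads carried bases that the hairpin does not encode. A read was counted as eligible where its encoded part is not followed by U in the hairpin, so that an added U can be recognised. The share of eligible reads ending in added U alone was 80.8% for let-7f-2-3p (250 eligible reads), 79.9% for let-7c-2-3p (21536), 69.4% for let-7f-1-3p (3191) and 59.8% for let-7b-3p (22989). Among the 150 3p strands of the tables with at least 200 eligible reads, the median was 15.6% and 16 had at least 50%. let-7f-2-3p, let-7c-2-3p and let-7f-1-3p ranked 1, 2 and 3, and let-7b-3p ranked 11. let-7i-3p (36.1%), let-7e-3p (35.2%) and let-7d-3p (32.2%) ranked 30, 31 and 35.

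The spread of these shares between libraries with at least 20 eligible reads differed between members. let-7i-3p ran from 23.1% to 50.0%, let-7d-3p from 22.2% to 41.2% and let-7e-3p from 22.3% to 37.8%. For let-7c-2-3p the group means ran from 77.9 ± 4.003% in tKO GM to 81.8 ± 5.17% in control DM3 (SD, n = 4), and all 16 libraries lay between 72.5% and 87.2%. For let-7b-3p the mean was 60.4 ± 0.585% in control GM and 65.0 ± 2.42% in control DM3 (n = 4 each), and 57.1 ± 3.94% in tKO GM (n = 4) and 56.4 ± 2.15% in tKO DM3, where 3 libraries had at least 20 eligible reads. In control the DM3 libraries, from 61.7% to 66.9%, lay above the GM libraries, from 59.7% to 61.1%. let-7e-3p ran from 35.03 ± 3.15% in control GM to 29.3 ± 5.71% in control DM3, and their libraries overlapped, while in tKO the GM libraries, from 33.4% to 37.3%, lay above the 3 DM3 libraries, from 30.3% to 32.4%. let-7d-3p ran from 28.3 ± 2.73% in control GM to 37.4 ± 3.69% in control DM3, and the DM3 libraries, from 32.9% to 41.2%, lay above the GM libraries, from 25.1% to 30.9%. In tKO they overlapped, at 22.2% to 32.9% in GM and 31.7% to 39.4% in 3 DM3 libraries. How often other 3p strands separate by medium in added U was not counted, and these separations were not tested. Only 6.14% of the placed let-7d-3p reads were eligible, because U follows its usual ends in the hairpin, so its share describes a small part of its reads.

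The 5p strands had far less added U. Their shares ran from 0.894% for let-7d-5p to 12.96% for let-7f-5p, with 2.60% for let-7b-5p and 2.55% for let-7c-5p, though under 6% of the placed reads of let-7a, b, c, d, f and g-5p were eligible. Over the 138 5p strands with at least 200 eligible reads the median was 6.94%. Added A on the 3p strands was lower than added U: 10.4% for let-7b-3p, 6.24% for let-7c-2-3p, 6.22% for let-7d-3p and 7.78% for let-7e-3p.

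The 3 members whose hairpins have the longer overhang (let-7a-2, let-7c-1 and let-7e) had added U on 21.2% of 104, 50.0% of 98 and 35.2% of 6630 eligible reads. The other 7 ranged from 32.2% to 80.8%, with a median of 59.8%. The ranges overlap: let-7d-3p, let-7i-3p and let-7g-3p (37.8% of 82 reads) lay among the long-overhang members, and the 4 strands with most added U were let-7b, let-7c-2, let-7f-1 and let-7f-2. No test was made of this grouping.

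**Figure D4:**
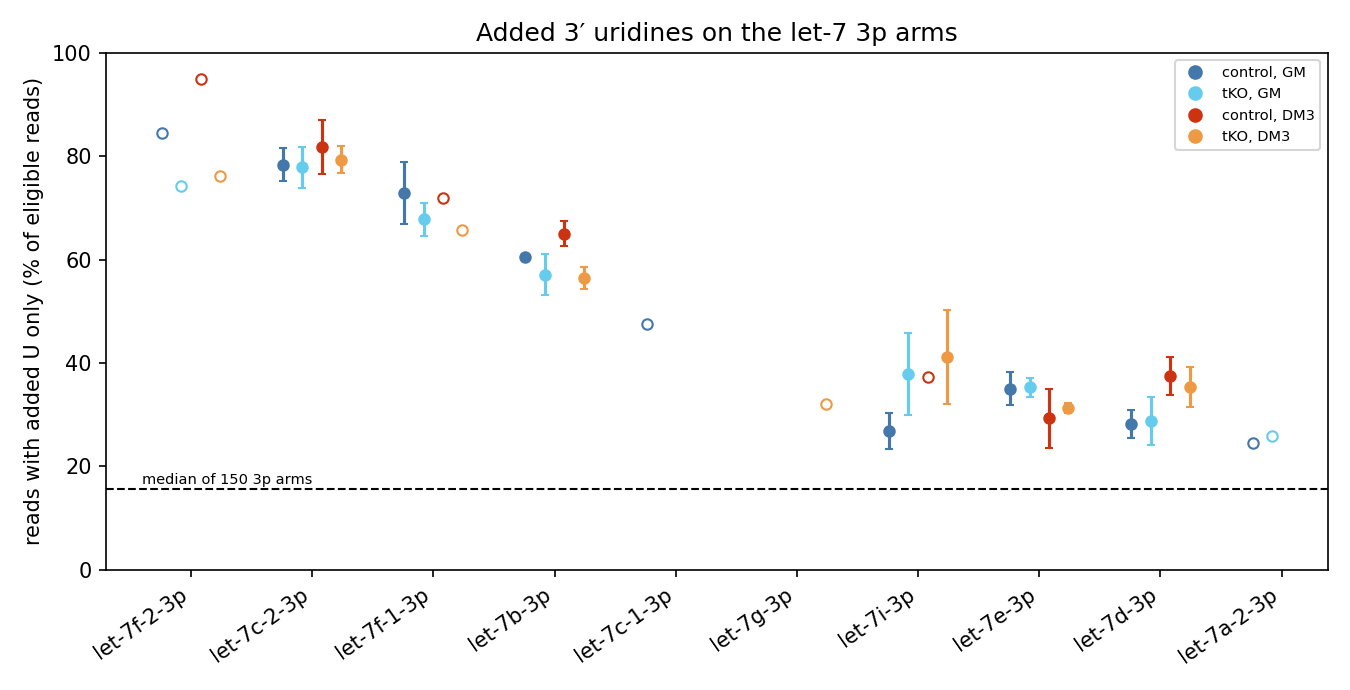
Share of eligible reads that end in added U alone (y axis, percent) for the 10 members, by group. Filled points are the mean and SD over 3 or 4 libraries with at least 20 eligible reads, open points the pooled share of a group with fewer such libraries and at least 20 eligible reads, and the dashed line is the median of 150 3p strands (15.6%). let-7f-2, c-2, f-1 and b lay above 50% in every group shown.

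A minority of reads listed under the members were not 3p strands but pieces that begin in the loop. For let-7c-2-3p these were 819 of 30803 reads, 2.66%, and 791 of them began within 1 base of the end of the 5p strand. Their share of pooled reads was 1.73% in GM and 4.68% in DM3. It was also higher in DM3 in let-7f-2-3p (12.1% to 30.4%, 30 and 31 loop reads) and let-7b-3p (0.433% to 1.17%, 95 and 50 loop reads), and in let-7d-3p on 7 loop reads. It was lower in DM3 in let-7c-1-3p (7.32% to 0.457%), let-7g-3p (9.43% to 5%) and let-7i-3p (2.40% to 1.01%), on 30, 8 and 33 loop reads in all, and in let-7a-2-3p, let-7e-3p and let-7f-1-3p on 2, 10 and 5. In let-7f-2-3p they were 61 of 350 reads, 17.4%, and for let-7d-3p 7 of 91036. Of the let-7c-2-3p loop reads 217 ran on through the end of the 3p strand. The most frequent reads are printed, with the 3p strand in capitals, to show where they begin and end. Both kinds are given for let-7c-2-3p, and only loop with 3p strand for let-7f-2-3p.
let-7c-2-3p, loop with 3p strand, 47 nt, 109 reads: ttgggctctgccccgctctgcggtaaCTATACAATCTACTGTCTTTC
let-7c-2-3p, loop alone, 24 nt, 194 reads: ttgggctctgccccgctctgcggt
let-7f-2-3p, loop with 3p strand, 49 nt, 32 reads: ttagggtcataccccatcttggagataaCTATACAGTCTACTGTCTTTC

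The libraries were cut from a gel for inserts of 15 to 50 nt, per the labels, so whole hairpins would not be seen and the longest pieces are at the edge of the range. Of the 149 reads listed as let-7a-1-3p, 111 were such loop reads.

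let-7a-2, let-7c-1 and let-7e are encoded beside miR-100 or miR-99 and a miR-125 hairpin, and let-7f-2 beside miR-98. Of 12 neighbouring strands, 11 were tested. In control edgeR called 6 lower in DM3 and none higher, and in tKO 5 lower and none higher, where 11.8% and 8.30% of all names were called lower. The smallest of these changes was that of miR-99b-5p, at -0.85 in control and -0.87 in tKO. Its call was lost in 13 and 14 of the 16 fits without 1 library, with changes from -1.01 to -0.77 and from -1.10 to -0.62 over the 16. It was also lost with total counts (-0.47 and -0.64) and, in tKO, with the replicate block (-0.86, edgeR adjusted p = 0.0528). miR-125a-5p, called in control (-0.99), was lost in 5 of the 16 fits (-1.18 to -0.94 over the 16) and with total counts (-0.61). It was also lost with every name kept (-1.21) and within replicates 1 and 2 (-1.26 and -0.75). miR-100-5p in tKO was lost in 3 of the 16 (-1.43 to -0.93 over the 16) and with every name kept (-1.25, edgeR adjusted p = 0.0857). Within replicate 2, miR-100-5p, miR-125a-3p and miR-99b-3p were called in neither genotype, at log2 fold changes from -1.37 to -0.71. Beside let-7a-2, miR-125b-1-3p had log2 fold changes of -2.84 (SE 0.44) in control and -2.77 (SE 0.44) in tKO, and miR-100-5p of -1.44 (SE 0.32) and -1.17 (SE 0.32). All 4 were called by edgeR, at adjusted p-values from 0.000114 to 0.0141. Beside let-7e, miR-125a-3p was at -1.51 (SE 0.33) and -1.50 (SE 0.33), and miR-99b-3p at -1.18 (SE 0.31) and -1.35 (SE 0.31), all called by edgeR at adjusted p-values from 0.00219 to 0.00763. Beside let-7c-1, miR-99a-5p (-0.62, SE 0.51 in control) and miR-125b-2-3p (-0.22, SE 0.60) were not called, nor were miR-98-5p and miR-98-3p beside let-7f-2. No neighbour was called between genotypes.

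The names whose level followed let-7d-3p most closely over the 16 libraries, among 246 with a mean of at least 100 CPM, were miR-744-5p (Pearson r = 0.941 on log2 TMM-scaled CPM), miR-1249-3p (0.856), miR-423-3p (0.836), miR-615-3p (0.833) and miR-423-5p (0.83). Its own guide let-7d-5p ranked 32nd (0.512), let-7b-3p 29th (0.533) and let-7c-2-3p 118th (0.003). These values describe the 16 libraries, which share lines, media and differences in depth, and carry no test.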

How the data were processed

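Small RNA was ligated to adapters, amplified and size-selected on a gel for 15 to 50 nt inserts, per the labels' protocols. The submitters' processing notes name cutadapt 1.15, STAR 2.5.4 and build mm10, with no role. The authors deposited 1 unitas table per library, per the file headers: sequences with the name they were assigned to and their expected counts, unnormalized. The unitas version and filters are not given in the sources used here.

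Expected counts were summed per name (2510 names, 237 of them merged into synonyms, 2273 left; merging added 0 reads to members) and rounded for tests. CPM are counts scaled to 1000000 listed reads. Floors of 3 counts and the 95% intervals of fold changes (normal, from the SE) are given where stated, and without molecular identifiers floors cover counting error only. Levels were fitted over all 16 libraries with edgeR 4.0.16 in R 4.3.3 (filterByExpr by group with a smallest count of 10, 807 names, TMM, robust quasi-likelihood, Benjamini-Hochberg adjustment; square root of the common dispersion 0.477). Arm ratios were fitted with edgeR over 387 pairs with at least 50 reads per strand, each library having its own term. Single members were tested by exact two-sided permutation of mean log2(CPM + 1) or of the log2 ratio with 0.5 reads added. Ends, added bases and loop reads are described without a test: a read needed 16 matching bases and at most 3 added bases. limma 3.58.1 and DESeq2 1.42.0 were alternatives, with other scalings, filters, mismatched reads left out, each replicate number alone, blocks and each library left out. The hairpin match was added after the data were seen. The fits were tested on simulated data.

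Named strands are the 10 members, their 5p strands, the strands encoded beside them and the 5 names nearest to the most abundant member. The members, lists and tests were chosen with earlier results of these data known. The labels give replicate numbers 1 and 2 but name no shared batch. Deviations from the group means over 551 names had mean correlations of 0.211, 0.104, 0.127 and 0.008 between libraries with the same number in the 4 pairs of groups. Single values ran from -0.46 to 0.637. Between libraries with different numbers the means were -0.203, -0.104, -0.129 and 0.013. Because deviations were taken from group means, these largely mirror the same-number means and are no separate reference. Since not every same-number pair was above 0.1, the numbers were not taken to pair libraries.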

Additional observations from a re-analysis of the deposited data

Results flagged for a closer look

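6 of the 80 sets of 4 libraries (10 members, 4 groups, level and arm ratio) held a library far from the other 3 by Dixon's 95% criterion, where chance gives about 1 in 20. The tKO GM library of line 1 replicate 2 stood apart 3 times: let-7a-2-3p was at 12.8 CPM against 4.44 to 5.67 CPM, at 0.103 per 100 reads of its 5p strand against 0.0303 to 0.0405, and let-7f-1-3p at 124 CPM against 82.4 to 87.7 CPM. let-7e-3p was at 161 CPM in control DM3 line 1 replicate 1 against 100.5 to 108 CPM, and at 44.3 CPM in tKO DM3 line 1 replicate 1 against 135 to 144 CPM. The let-7f-1 ratio was 0.452 per 100 in control GM line 2 replicate 1 against 0.939 to 1.02. No member was called in the interaction of genotype and medium.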

How the results depend on the processing

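Depth limits these results, since 4 members held 113 to 615 reads over all libraries. Counts of called names are given in the order genotype in GM, genotype in DM3, medium in control, medium in tKO. Levels gave 9, 7, 223 and 159 and ratios 1, 4, 58 and 35. With the replicate block, levels gave 10, 7, 241 and 168 and ratios 2, 5, 75 and 49; among members this added let-7f-1-3p in tKO. With the replicate block and line together, the level counts between genotypes were 22 and 17, the ratio count between genotypes in GM was 3 and that between media in tKO 53. That line term is shared by control line 2 and tKO line C2, so these counts are not corrected for lines within a genotype. Level counts between genotypes were 15 and 14 with every name kept and 20 and 19 by DESeq2. With mismatched reads left out, they were 18 and 13, and ratio counts 0, 0 and 38 in the first 3 comparisons. Replicate 1 alone gave level counts of 2, 1 and 85 in the first 3 comparisons and ratio counts of 0, 0, 15 and 40. Replicate 2 alone gave level counts of 70 between genotypes in DM3 and 74 between media in tKO, and ratio counts of 0, 2, 37 and 18. The hairpin match, chosen after seeing the data, gave level counts of 20 between genotypes in GM and 94 and 95 between media, and ratio counts of 0, 0 and 19 in the first 3 comparisons. The fits tested different numbers of names, so these counts cannot be compared directly. Main fits tested 807 names and 387 pairs, against 483 and 200 with mismatched reads left out and 356 and 142 by hairpin match. Replicate 1 alone tested 564 and 154, and replicate 2 alone 1170 and 345. With every name kept, 2273 names were tested. Ratio counts between genotypes were 2 and 2 by limma with 0.5 reads added, 2 and 1 with 5 reads, 2 and 7 with at least 10 reads per strand, and 0 and 2 with names as listed. The let-7a-2 ratio in control was 0.22 by limma with 5 reads added. Leaving out 1 library gave level counts of 5 to 16, 5 to 53, 159 to 263 and 109 to 154, ratio counts of 0 to 2, 1 to 6, 35 to 69 and 20 to 48, and interaction counts of 0 to 1 for levels and 0 to 0 for ratios. Members called between media by level were then 3 to 5 in control and 1 to 2 in tKO, and by ratio 0 to 2 and 0 to 1. let-7a-2-3p (-3.20 to -2.74) and let-7b-3p (-1.75 to -1.48) in control and let-7b-3p in tKO (-1.97 to -1.60) stayed called in all 16 such fits. By level, total counts left 2 members called in control and 1 in tKO. Keeping every name also left 1 called in tKO, with let-7e-3p lost (-1.20, edgeR adjusted p = 0.161). Replicate 1 alone called 0 in control but 2 in tKO, where let-7e-3p was lost (-1.53, edgeR adjusted p = 0.0966) and let-7f-1-3p gained. Replicate 2 alone called 2 in control but 0 in tKO. Here let-7b-3p was at -1.52 (edgeR adjusted p = 0.0605) in control for replicate 1 and at -1.54 (0.0588) in tKO for replicate 2. The cause of these differences was not tested.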
